A study of Drosophila melanogaster with 3 samples.

Results

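Summits of GFP-tagged CG7839, annotated as Noc1, were examined where they lay just upstream of the start of 1 protein-coding gene and of no other. A summit is the single base at which a peak of precipitated DNA is highest. A summit was kept when at least 1 protein-coding transcript start lay downstream of it within 500 bp and when the starts of exactly 1 protein-coding gene lay within 500 bp on either side. The rule used position and annotation only, not signal strength, and it held for 1621 of the 8188 summits in the list that the authors thresholded on the irreproducible discovery rate (IDR). That is 19.8% of them (95% Wilson interval 18.9 to 20.7%). They lay upstream of 1444 of 13968 protein-coding genes, a background of 10.3% of all such genes and 13.7% of the 10540 genes whose upstream DNA could hold such a summit.

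The data come from chromatin immunoprecipitation and sequencing (ChIP-seq) of whole Drosophila melanogaster embryos aged 0 to 24 h, males and females pooled, in 1 group of 3 replicates labelled biological. All 3 replicates are from 1 transgenic line that stably carries CG7839 with eGFP at its C-terminus. The chromatin was sonicated and precipitated with an antibody against GFP. No other genotype, age or antibody is among the samples, so the results are a description of 1 group, and whole embryos mix all tissues and stages of that day. The promoter that drives the fusion is not given in the labels, and all lists derive from the same control alignment, which was not analysed here. The labels do not say whether the replicates were separate collections, so errors measure only the spread between these samples. Within 500 bp of a start of the tagged gene itself there was no summit in the IDR list, the pooled list or the full lists of replicates 1 and 2, and there was 1 summit in the full list of replicate 3. The files give no read depth, and intervals on shares cover counting error only.

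RNA polymerase II begins transcription at a core promoter, and the DNA just upstream of it commonly holds the sites of factors that place and activate the polymerase. In the compact fly genome many genes are arranged head to head and share their upstream DNA, so a summit upstream of 1 gene alone can be tied by position to fewer genes than one between such a pair. Many fly genes also have several alternative starts, each with its own promoter. Noc1 is known in yeast as a nucleolar protein that acts with its partners in making the large ribosomal subunit.

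Sequences around summits are shown here to give the DNA behind the positions. They are the 2 strongest summits, and 1 summit with each of 4 promoter motifs and with 1 further word, whose shares are given below. Holders of a motif or word were taken by strength among windows free of exonic bases, but not from every arm. A stronger holder may thus lie elsewhere, since the windows shown are all on arms 3L, 3R and X. All are on dm6, from the RefSeq assembly, written 5′ to 3′ on the strand of the gene, and taken from 50 bp on either side of the summit or up to the base before the start; summits whose windows held exonic bases were passed over. CG14100, a gene known here only by its number, has the strongest summit of the IDR list, and the window is chr3L:19590570-19590670 on the minus strand. Ugalt, which encodes a UDP-galactose transporter, has the next one (chrX:2703853-2703933, minus strand). Capitals in the others mark the motif. The window of eEF1gamma, a translation elongation factor subunit, is chr3R:29220110-29220171 on the plus strand and holds the DNA replication-related element (DRE), TATCGATA. The window of Top1, which encodes DNA topoisomerase 1, is chrX:15319409-15319478 on the plus strand and holds the Motif 1 core, GGTCACAC; this summit is a weak one (IDR rank 5938), stronger holders of the motif having been passed over. The window of CG18549 is chr3R:12449111-12449211 on the plus strand and holds the letters of the TATA box, TATAAA. The summit lies 135 bp upstream of the start, and whether these letters act as a TATA box was not tested. The window of bbx, which encodes a DNA-binding protein with an HMG box, is chrX:21367787-21367887 on the plus strand and holds the GAGA motif as the letters CTCTC of its reverse strand. The window of RpL23A, a protein of the large ribosomal subunit, is chr3L:1668682-1668782 on the minus strand and holds the reverse letters of the word CAACACTG.
CG14100: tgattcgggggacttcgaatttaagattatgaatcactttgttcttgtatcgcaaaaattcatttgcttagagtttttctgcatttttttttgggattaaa
Ugalt: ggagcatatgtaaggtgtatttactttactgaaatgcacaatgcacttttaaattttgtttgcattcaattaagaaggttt
eEF1gamma: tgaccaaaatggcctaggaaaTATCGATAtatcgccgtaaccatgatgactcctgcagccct
Top1: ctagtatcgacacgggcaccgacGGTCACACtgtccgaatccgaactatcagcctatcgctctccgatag
CG18549: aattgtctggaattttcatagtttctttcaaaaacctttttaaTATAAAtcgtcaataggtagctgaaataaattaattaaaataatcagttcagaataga
bbx: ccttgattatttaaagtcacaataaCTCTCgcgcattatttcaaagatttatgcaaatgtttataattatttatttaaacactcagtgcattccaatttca
RpL23A: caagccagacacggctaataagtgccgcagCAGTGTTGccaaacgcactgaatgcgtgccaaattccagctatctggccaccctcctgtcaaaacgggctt

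The first question was how densely and how far from the start these summits lay. Positions that meet the rule add up to 6.29 Mb, called eligible DNA here, or 4.57% of the chromosome arms. This DNA held 258 summits per Mb, against 59.5 per Mb for all IDR summits over the arms, a ratio of 4.33. In the 8188 strongest summits of each replicate, which match the length of the IDR list, the number that met the rule was 1652, 1712 and 1780 in replicates 1, 2 and 3. That is 273 ± 10.2 per Mb of eligible DNA (SD, n = 3), so the density differed little between replicates.

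The summits stood back from the start rather than on it. The median distance to the nearest start downstream was 202 bp in the IDR list, with quartiles of 116 and 317 bp. The replicate medians were 203.5, 188 and 193 bp, against 234 bp for eligible DNA. Per kb of eligible DNA, density was highest from 151 to 200 bp upstream, at 0.376 summits per kb (replicates 0.40 ± 0.0262, SD, n = 3). It was 0.216 per kb within 50 bp of the start (replicates 0.239 ± 0.0669) and 0.157 per kb from 451 to 500 bp (replicates 0.147 ± 0.0251). Both ends of the window were thus sparser than the class at 151 to 200 bp in each replicate. The replicates spread most within 50 bp of the start, with 0.173, 0.307 and 0.238 per kb, and in replicate 2 that class was denser than those from 251 bp on. Of the members, 62.0% lay within 250 bp (replicates 63.8 ± 2.00%), against 53.2% of eligible DNA.

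**Figure D1:**
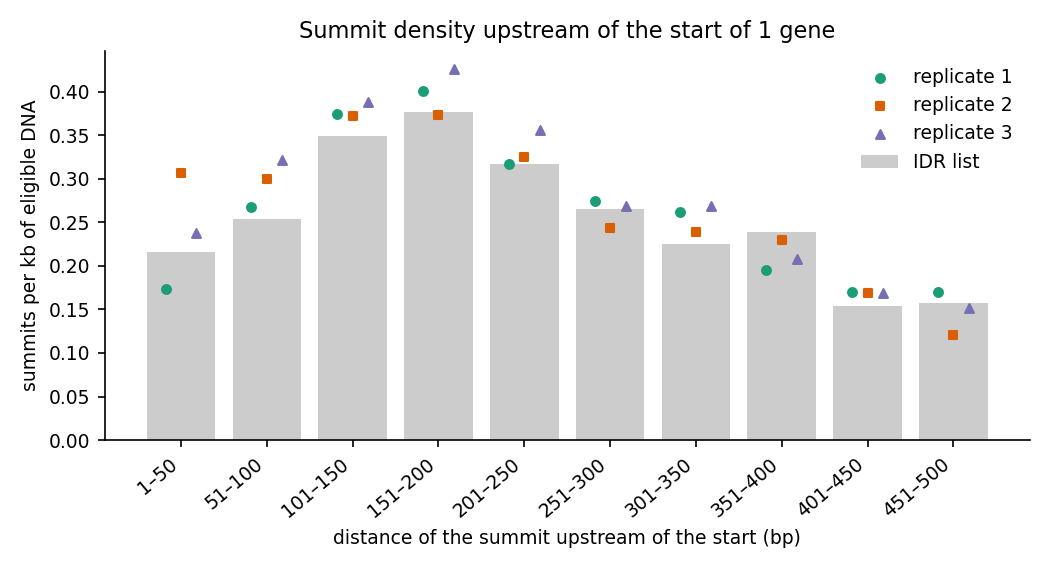
Summits per kb of eligible DNA (vertical axis) by distance upstream of the start in classes of 50 bp (horizontal axis), with bars for the IDR list and points for each replicate's 8188 strongest summits. The bar for 151 to 200 bp is the tallest at 0.376 per kb, and the classes beyond 400 bp lie at 0.154 and 0.157 per kb.

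The 3 members nearest the limit were upstream of CG17896 at 499 bp (IDR rank 115, where rank 1 is the strongest), CG6891 at 498 bp (rank 1744) and CrebA at 498 bp (rank 1874). The 3 summits nearest to it outside lay 501 bp upstream of Liprin-gamma, CG10232 and CG4313 and had IDR ranks 4628, 5348 and 5689.

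Signal strength, used only as a rank within each list, differed with distance. A percentile of 0 is the weakest summit of a list and 100 the strongest. The median percentile was 31.5 for members within 50 bp of the start, and 33.3 ± 3.91 in the replicates (SD, n = 3). It was 73.2 for members at 151 to 200 bp, and 71.4 ± 1.15 in the replicates. The replicate values of the 2 classes did not overlap: the first ran from 28.9 to 36.5 and the second from 70.5 to 72.7. Members at 301 to 500 bp had a median percentile of 59.5 (replicates 59.2 ± 0.627). The GC content of the DNA around the summits also moved with distance (see the sequence features near the end), and its part in the ranks was not tested.

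**Figure D2:**
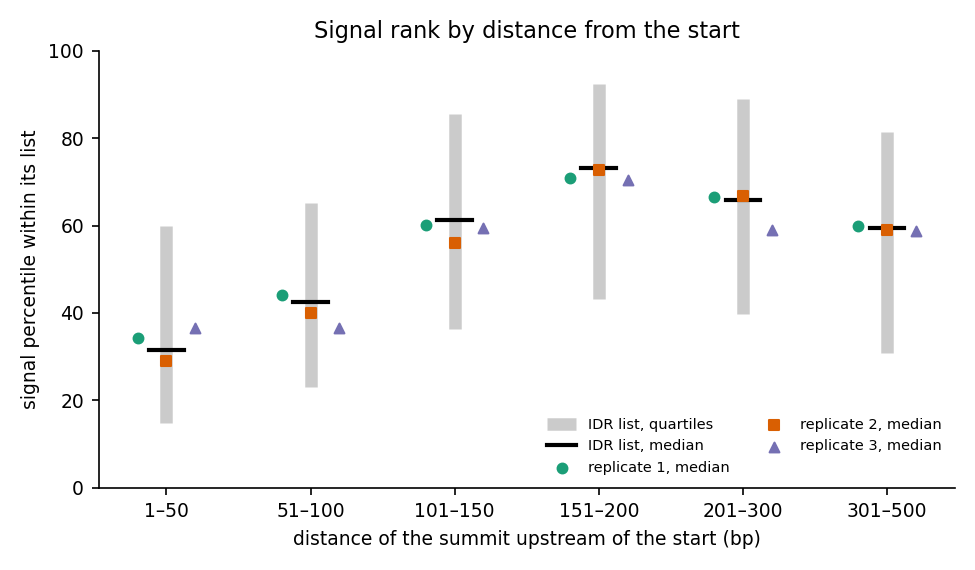
Signal percentile within each list (vertical axis, 0 to 100) by distance of the summit upstream of the start (horizontal axis, bp). Grey bars span the quartiles and black lines mark the median of the IDR list, and points are the medians of each replicate; all are lower within 100 bp of the start than beyond it, and highest at 151 to 200 bp.

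Strong summits of the whole list lay upstream of 1 gene more often than weak ones. Of the 25 strongest IDR summits, 11 were members, and of the 25 strongest in replicates 1, 2 and 3, 11, 13 and 10 were. Of the 100 strongest IDR summits 36 were members, and of the 1000 strongest 322 were. Among successive groups of 2047 IDR summits in order of strength, the share of members was 27.3, 18.7, 17.2 and 16%. The same groups in the replicates gave 27.4 ± 0.562, 19.3 ± 0.958, 18.8 ± 1.43 and 18.3 ± 2.63% (SD, n = 3), so the strongest group stood apart from the other 3 by more than the replicate spread, and those 3 did not separate.

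The strongest members were upstream of genes of unlike function. The summit of CG14100 lay 96 bp upstream of the start on arm 3L and ranked 1 in the IDR list and 1, 2 and 2 in replicates 1, 2 and 3. The summit of Ugalt lay 31 bp upstream on arm X, with rank 2 in the IDR list and ranks 2, 1 and 1 in the replicates. These ranks leave the order of the first pair unsettled. The summit of mRpL41, a protein of the large subunit of the mitochondrial ribosome, lay 135 bp upstream on arm 2R (rank 5; replicates 3, 5 and 5). The summit of ph-p, a Polycomb repressive complex subunit, lay 467 bp upstream of a start inside its own gene on arm X (rank 7; replicates 7, 8 and 7). Its place in the order thus moved by 1 at most. Its tandem copy ph-d had a weaker member 394 bp upstream (rank 3846), matched in replicates 2 and 3 but not in replicate 1. The 2 genes are near-identical in part, and how reads that fit both were assigned is not given in the sources used here.

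Of the other strongest members, px, which acts in wing vein patterning, had its summit 200 bp upstream on arm 2R (rank 9; replicates 13, 7 and 8). The summit of cu, which encodes a nocturnin-like protein and is known for the curled wing mutant, lay 300 bp upstream on arm 3R (rank 10; replicates 9, 13 and 15). PNPase, a mitochondrial exoribonuclease that degrades RNA, had its summit 88 bp upstream of 1 start and 84 bp past another (rank 11; replicates 10, 11 and 10). All 3 kept to the first 15 places in each replicate. CG18549 on arm 3R (135 bp, rank 14), Fkbp14 on arm 2R (135 bp, rank 22), CG1888 on arm 2R (229 bp, rank 23), SLC5A11 on arm 2L (149 bp, rank 24) and CG31145 on arm 3R (187 bp, rank 27) complete the 12 strongest. Fkbp14 encodes a peptidyl-prolyl isomerase of the endoplasmic reticulum and SLC5A11 a sodium-coupled solute transporter. The replicate ranks of these 5 ran from 9 for CG18549 in replicate 2 to 32 for CG31145 in replicates 2 and 3.

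Members recurred between replicates, as far as a list derived from those same replicates can show. A strong summit of a replicate, one of its 8188 strongest, within 100 bp was found for 86.1, 85.8 and 85.6% of members in replicates 1, 2 and 3. The median offset was 10, 11 and 11 bp. Of these matches, 97.9, 96.7 and 97.2% met the rule for the same gene, so small shifts in summit position seldom changed the assignment. All 3 replicates matched 1133 members (69.9%, 95% Wilson interval 67.6 to 72.1%), and 19 members (1.17%) were matched in none. Of the 941 members in the stronger 4094 IDR summits, 894 were matched in all 3 replicates (95%), and 239 of the 680 in the weaker 4094 were (35.1%). A match needs a place among the 8188 strongest of a replicate. A gap in this direction is thus built into the limit and is no trait of the members. At the level of genes, 1059 had a member in each of the 3 replicates, and 1041 of these had one in the IDR list.

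Genes with several alternative starts more often had a member. A member was found at 8.58% of the 7413 genes with 1 annotated start and eligible DNA, 19.3% of the 2048 with 2 starts, 35.1% of the 889 with 3 or 4, and 52.6% of the 190 with 5 or more. More starts bring more eligible DNA, and the difference was smaller per Mb of it. With 1 start there were 192 members per Mb (replicates 205 ± 12.5, SD, n = 3), with 2 there were 305 (322 ± 12.8), with 3 or 4 there were 362 (384 ± 14.1) and with 5 or more 368 (374 ± 28.7). Genes with 1 start thus lay below the others in every replicate, and genes with 3 or 4 starts and with 5 or more did not differ beyond their spread. The median distance at genes with 1 start was 177 bp (replicates 175 ± 11.3), against 234 bp for all eligible DNA. Density by distance was not computed for these genes alone. Whether their summits stood back from the start was thus not tested.

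**Figure D3:**
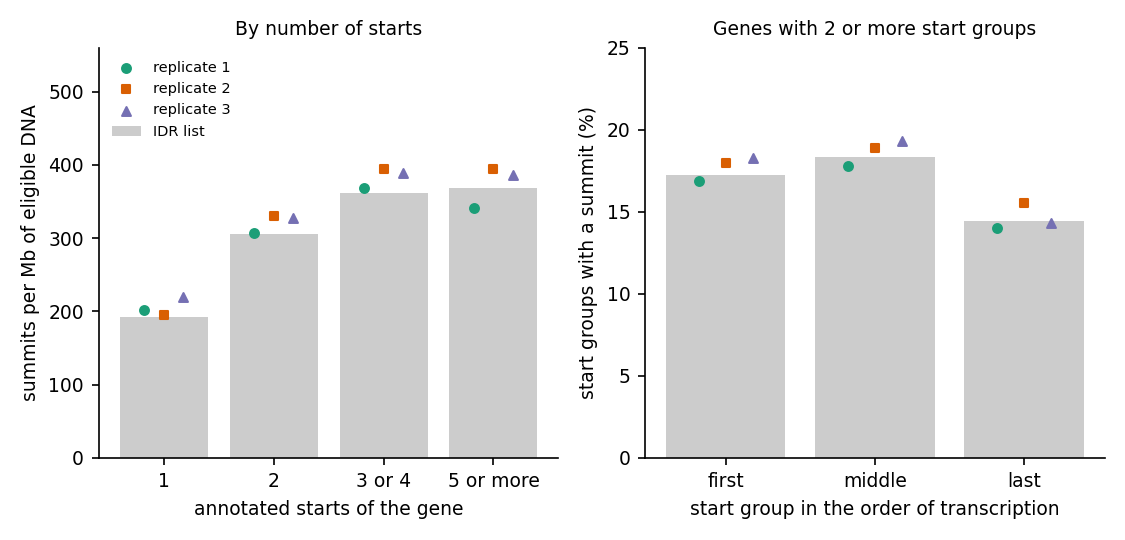
Left, summits per Mb of eligible DNA (vertical axis) by the number of annotated starts of the gene; right, the percent of start groups with a summit by their order along the gene. Bars are the IDR list and points the 3 replicates; the left bars run from 192 to 368 per Mb, and the last start group has the lowest share at 14.4%.

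Where a gene had starts more than 500 bp apart, they were treated as separate start groups. Of 2039 genes with 2 or more groups, 630 had a member, 540 of them at 1 group only and 90 at 2 or more. In the order of transcription, 17.2% of first groups, 18.3% of middle groups and 14.4% of last groups with eligible DNA had a member. The replicates gave 17.7 ± 0.722, 18.7 ± 0.795 and 14.6 ± 0.811% (SD, n = 3). The last group was the lowest in every replicate, and middle groups were above first groups in each by about the size of the SD. These shares were not computed per Mb of eligible DNA, so the part of group size in this order was not tested. Members between 2 starts of their gene, past one and upstream of another, numbered 147 (9.07%; replicates 9.87 ± 0.877%), near the 8.20% of eligible DNA that lies so. The strongest of them were at PNPase, at the glutathione transferase gene GstE13 (134 bp, IDR rank 90) and at the transporter gene MFS10 (170 bp, rank 112). A further view of alternative starts comes from the 1295 genes with 1 member, 130 with 2, 12 with 3, 5 with 4 and 2 with 5.

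Rtnl1, which encodes a reticulon that shapes the endoplasmic reticulum, had 5 members at 4 of its 7 start groups. Their distances were 276, 231, 223, 301 and 424 bp and their IDR ranks 67, 386, 961, 1789 and 7853. The strongest ranked 61, 83 and 56 in the replicates and the weakest 11361, 2693 and 8437, so 4 of the 5 were stable in rank and the last, at the same start as another, was not. SNF4Agamma, the gamma subunit of the energy sensor AMP-activated kinase, also had 5 members, at 5 of 9 start groups. Its strongest ranked 902 (replicates 998, 853 and 710) and the other 4 between 6617 and 7739. Each of these 4 was matched among the 8188 strongest summits of only 1 replicate, so they did not recur as the strongest did. Ptpmeg2, a protein tyrosine phosphatase gene, had 4 members at 4 of 6 start groups, with IDR ranks 174, 230, 563 and 5000. The 3 strongest of Ptpmeg2 lay at 195, 179 and 184 bp, and ranked 209, 259 and 611 in replicate 1, 147, 215 and 601 in replicate 2 and 178, 220 and 469 in replicate 3. These 3 promoters of Ptpmeg2 thus had summits at nearly the same distance and in the same order of rank in every replicate.

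Most members lay between genes or inside the gene whose start they preceded. Between annotated protein-coding genes there were 911 (56.2%, against 50.3% of eligible DNA), and 539 (33.3%, against 25.8%) lay inside their own gene, upstream of an internal start. Inside another protein-coding gene there were 171, or 10.5% (replicates 10.2 ± 0.306%, SD, n = 3), against 23.8% of eligible DNA. Exonic positions held 155 members, or 9.56% (replicates 10.2 ± 0.922%), against 19.1% of eligible DNA. DNA inside another gene and exonic DNA were thus under-used relative to their length, by more than the replicate spread. The strongest members inside another gene were those of aay, a phosphoserine phosphatase gene (200 bp, rank 49; replicates 66, 44 and 48), eIF6, which keeps the ribosomal subunits apart (110 bp, rank 54; replicates 39, 78 and 55), and elav, a neuronal RNA-binding protein gene (266 bp, rank 73; replicates 83, 63 and 79). Median percentile was 57.0 between genes, 61.8 in the own gene and 57.1 in another gene. In the replicates it was 55.2 ± 2.79, 60.7 ± 3.82 and 53.9 ± 0.318, so strength did not separate the first from the last.

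Starts of non-coding genes were near few members. A long non-coding RNA start lay within 500 bp of 45 members (2.78%, against 2.62% of eligible DNA), an antisense RNA start near 37 (2.28% against 1.30%), a tRNA start near 9 (0.555% against 0.265%) and a snoRNA start near 8 (0.494% against 0.132%). The 95% Wilson interval for snoRNA starts, 0.25 to 0.971%, lay above its share of DNA, as did that for antisense RNA starts, 1.66 to 3.13%, and, narrowly, that for tRNA starts, 0.292 to 1.05%. The snoRNA and tRNA values rest on fewer than 10 summits each. A second IDR summit lay within 500 bp of 180 members (11.1%, 9.67 to 12.7%), against 7.55% (6.94 to 8.22%) of all other IDR summits. A summit and its neighbour can both count here, so these intervals may be too narrow. Neither share was computed in the replicates. By arm, density per Mb of eligible DNA was 253 on 2L, 246 on 2R, 260 on 3L, 255 on 3R and 290 on X. The replicates gave 297 ± 12.8 per Mb on X (SD, n = 3), and 279 ± 18.7 on 2L, the next highest of these 5 arms in the replicates. X was above 2L in each replicate, at 293, 287 and 311 against 260, 278 and 298 per Mb, although the ranges over replicates overlapped. Arm 4 had 4 members, or 72 per Mb, with 108, 144 and 270 per Mb in the replicates. Arm Y had none, which allows up to 261 per Mb on its small stretch of eligible DNA.

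The members' genes were then described by function, in 27 lists. Of the 1444 genes, 1282 (88.8%) were in no list. The same share over all protein-coding genes was not computed, so this value is not a trait of the members. Genes known only by a CG number made up 446 of the 1444 (30.9%), against 45.7% of genes with eligible DNA. The lists are read against the 10.3% of all protein-coding genes, and for genes with eligible DNA against 13.7%. Genes that share their upstream DNA with a neighbour cannot count here, so a list's share also depends on how its genes are arranged. It depends on their number of starts as well. Of genes with eligible DNA, 8.58% of those with 1 start and 52.6% of those with 5 or more had a member. The lists were not matched for number of starts, and its part in their shares was not tested.

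**Figure D4:**
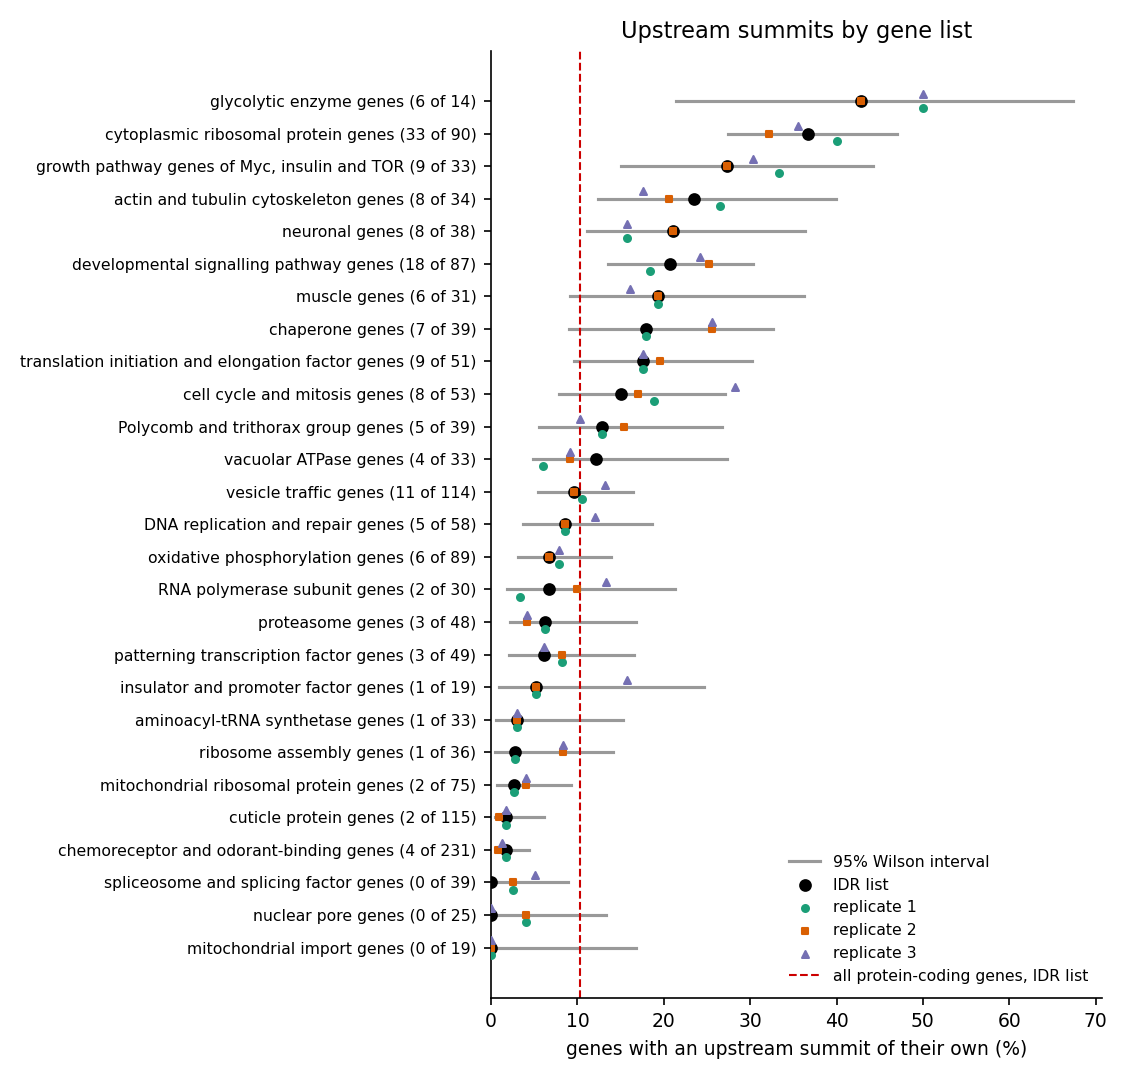
Percent of the genes of each list with an upstream summit of their own (horizontal axis), as black points for the IDR list with 95% Wilson intervals and as small points for each replicate. The dashed line is the share over all protein-coding genes; glycolytic enzymes and cytoplasmic ribosomal proteins lie farthest to its right, and spliceosome, nuclear pore and mitochondrial import genes at 0%.

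Cytoplasmic ribosomal protein genes, which encode the protein part of the cell's main ribosomes, had a member at 33 of 90 (36.7%) and at 57.9% of the 57 with eligible DNA. In the replicates it was 36, 29 and 32 genes (35.9 ± 3.90%, SD, n = 3). Their summits lay much closer to the start than other members. Of 36 such summits 23 were within 50 bp (63.9%, 95% Wilson interval 47.6 to 77.5%), against 9.44% of all members. The median distance was 37.5 bp, and it was 43, 38.5 and 42 bp in the replicates. Ribosomal protein summits within 50 bp had a median percentile of 68.7, against 26.5 for other members within 50 bp. In the replicates these were 67.4, 73.6 and 56.0 against 29.9, 27.2 and 32.0, so the groups did not overlap. Near-start summits were thus weak in general and not weak at this gene group.

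The strongest ribosomal protein members were those of RpL23A (78 bp, IDR rank 713; replicates 600, 702 and 1105), RpL24 (17 bp, rank 1148; replicates 1572, 749 and 1522) and RpL30 (52 bp, rank 1242; replicates 1407, 972 and 1645). The summit of RpL30 lay 17 bp past another of its starts. No member of this list was stronger than that of RpL23A in the IDR list, and within the list the order of the first 3 changed between replicates. In RpS4, a small subunit protein, the summit was 4 bp upstream (rank 1613), and in RpL8 it was 37 bp upstream (rank 1839).

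Other lists of protein synthesis had lower shares than the 36.7% of cytoplasmic ribosomal protein genes. Translation initiation and elongation factors had a member at 9 of 51 genes (17.6%; replicates 18.3 ± 1.13%). The strongest were eIF6 with rank 54, eEF1gamma (12 bp upstream, rank 737; replicates 566, 819 and 967) and eIF5B, which joins the ribosomal subunits (132 bp, rank 1711). Mitochondrial ribosomal proteins had a member at 2 of 75 genes, mRpL41 and mRpL19, and only 20 of the 75 have eligible DNA. A further 28 of these genes had a summit in DNA that they share with a neighbour. The share of all protein-coding genes with a shared summit was not computed. The counts of shared summits here and in the lists below thus have no background to be read against. Aminoacyl-tRNA synthetases, which charge tRNAs, had a member at 1 of 33 genes (AlaRS, 103 bp, rank 4451), and 13 had a shared summit. Ribosome assembly genes, the group to which the tagged gene belongs by function, had a member at 1 of 36, the box H/ACA snoRNP protein gene NHP2 (200 bp, rank 1166; replicates 1228, 1362 and 992). In the replicates 1, 3 and 3 of the 36 had one, and 12 of them have eligible DNA. The Wilson interval held the 10.3% background for translation factors (9.57 to 30.3%), synthetases (0.537 to 15.3%) and ribosome assembly genes (0.492 to 14.2%). It lay below the background for mitochondrial ribosomal proteins (0.734 to 9.21%). Of their genes with eligible DNA 10% had a member, against 13.7%, and no interval was computed for that share.

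Glycolytic enzyme genes had a member at 6 of 14 (42.9%, 95% Wilson interval 21.4 to 67.4%; replicates 7, 6 and 7 genes), the highest share of all listed genes. Of the 12 with eligible DNA it was 50%, below the 57.9% of ribosomal protein genes. All 6 had a summit in the stronger 4094, and their median percentile was 97.9. Gapdh2, glyceraldehyde-3-phosphate dehydrogenase, led with a summit 167 bp upstream (rank 30; replicates 46, 24 and 28). Ldh, lactate dehydrogenase, had one at 192 bp (rank 157; replicates 188, 137 and 173), and Eno, enolase, at 221 bp (rank 161; replicates 158, 173 and 149). Hex-A, a hexokinase, followed at 173 bp (rank 180; replicates 196, 152 and 211), Pgk, phosphoglycerate kinase, at 368 bp (rank 671) and PyK, pyruvate kinase, at 313 bp (rank 1665). Unlike the ribosomal protein summits, none of these 6 lay within 100 bp of the start. The list is small, and its interval is wide.

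Growth pathway genes of Myc, insulin and TOR had a member at 9 of 33 (27.3%; replicates 30.3 ± 3.03%, SD, n = 3). The strongest were those of REPTOR, a transcription factor that TOR restrains (151 bp, rank 166; replicates 224, 118 and 172), foxo, the transcription factor that insulin signalling restrains (400 bp, rank 577; replicates 506, 657 and 555), and Pi3K21B, the regulatory subunit of PI3-kinase (197 bp, rank 702; replicates 574, 900 and 688). Receptor and effector were both present, with InR, the insulin receptor, at 101 bp (rank 2569) and Thor, a repressor of translation initiation, at 46 bp (rank 3188). Developmental signalling genes had a member at 18 of 87 (20.7%; replicates 22.6 ± 3.69%). They were led by sgg, the kinase GSK3 of Wnt signalling (202 bp, rank 160; replicates 192, 145 and 156), at the sixth of its 8 start groups. The EGF-like ligand gene spi (194 bp, rank 197; replicates 180, 250 and 188) and the Notch inhibitor gene numb (246 bp, rank 275; replicates 262, 257 and 314) followed. Among the weaker members were those of ptc, the Hedgehog receptor (rank 4734), and tkv, a BMP receptor (rank 4801).

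Cytoskeletal, neuronal and muscle genes lay at similar shares to each other. Actin and tubulin cytoskeleton genes had a member at 8 of 34 (23.5%; replicates 21.6 ± 4.49%), neuronal genes at 8 of 38 (21.1%; 17.5 ± 3.04%) and muscle genes at 6 of 31 (19.4%; 18.3 ± 1.86%). In the first list sqh, the myosin regulatory light chain (215 bp, rank 673), Moe, which links actin to the membrane (438 bp, rank 753), and Act5C, a cytoplasmic actin (462 bp, rank 912), had the strongest summits. In the neuronal list, elav at rank 73 was far ahead of Nrx-1, a synaptic adhesion protein (148 bp, rank 642; replicates 586, 697 and 683), and Nlg2, a neuroligin (190 bp, rank 1782; replicates 1551, 2082 and 2075). In the muscle list sls, a titin-like protein of the sarcomere, had its summit at 282 bp (rank 548; replicates 558, 565 and 532), Tm1, a tropomyosin, at 300 bp (rank 1461) and Act87E, a muscle actin, at 361 bp (rank 1774). No tissue can be read from these, since whole embryos were used.

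Chaperone genes had a member at 7 of 39 (17.9%; replicates 23.1 ± 4.44%), among them small heat shock genes. Hsp27 had a summit at 148 bp (rank 109; replicates 118, 106 and 102) and Hsp26 at 122 bp (rank 1181; replicates 1732, 868 and 1238). Hsp83, the fly Hsp90, had one at 108 bp (rank 717; replicates 847, 456 and 1183). The 3 replicates placed Hsp27 within 16 ranks of each other and spread Hsp83 and Hsp26 more widely. Cell cycle and mitosis genes had a member at 8 of 53 (15.1%; replicates 21.4 ± 6.07%), among them Dp, the partner of E2F factors (227 bp, rank 614), and pnut, a septin (435 bp, rank 1533). In this list replicate 3 stood apart, with 15 genes against 10 and 9 in replicates 1 and 2.

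Several lists lay near the 10.3% background of all genes, and many of their genes have no eligible DNA. Polycomb and trithorax group genes had a member at 5 of 39 (ph-p, ph-d, kis, jing and Pc), vacuolar ATPase genes, whose products acidify organelles, at 4 of 33, and vesicle traffic genes at 11 of 114. The strongest vesicle traffic members were Syx4, a syntaxin (164 bp, rank 390; replicates 522, 333 and 318), Rab5, a GTPase of early endosomes (244 bp, rank 393; replicates 466, 303 and 386), and deltaCOP, a coatomer subunit (141 bp, rank 1431). DNA replication and repair genes had a member at 5 of 58, with the mismatch repair gene spel1 (155 bp, rank 998) and the recombination gene spn-B (158 bp, rank 1373) in front. Oxidative phosphorylation genes had one at 6 of 89 (6.74%), and 5 of the 6 were in the weaker 4094 summits; blw, the alpha subunit of ATP synthase, was the strongest (127 bp, rank 2353). RNA polymerase subunits had one at 2 of 30, proteasome genes at 3 of 48, and insulator and promoter factors at 1 of 19, BEAF-32 (75 bp, rank 1747), with 7 more at shared summits.

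Further lists had shares below the 10.3% background, which for some of them lay within the interval or limit. Cuticle protein genes had a member at 2 of 115 (1.74%, 95% Wilson interval 0.478 to 6.12%), Cpr65Ea and Cpr67Fa1, and chemoreceptor and odorant-binding genes at 4 of 231 (1.73%, 0.675 to 4.37%). Eligible DNA was present at 111 of the 115 and at 205 of the 231. Patterning transcription factors had a member at 3 of 49 (6.12%, 2.10 to 16.5%, which holds the background). These members were upstream of bcd, the anterior determinant (234 bp, rank 1810; replicates 1440, 2379 and 2121), fkh, a gut factor (242 bp, rank 4149), and Antp, a Hox factor (261 bp, rank 5458). All 49 have eligible DNA. Spliceosome genes had none of 39, which allows up to 7.69%, but only 12 of them have eligible DNA and 10 had a shared summit. Nuclear pore genes had none of 25 and mitochondrial import genes none of 19, which allow up to 12% and 15.8%. Both limits lie above the background. Only 9 and 12 of these genes have eligible DNA, and 5 and 3 had a shared summit. In replicates 1, 2 and 3 the spliceosome list had 1, 1 and 2 genes with a member and the nuclear pore list 1, 1 and 0. The mitochondrial import list had none.

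The DNA around the summits was poorer in G and C than the same place at other genes. In the 101 bp centred on the summit, median GC was 30.7% (quartiles 25.7 and 38.6%), and 31.4 ± 0.572% in the replicates (SD, n = 3). It was 36.6% in windows of the same length centred 202 bp upstream of the start of 8360 genes with no member (quartiles 28.7 and 45.5%). Members in the stronger 4094 summits had a median of 28.7% and those in the weaker 4094 of 35.6%. Close to the start the order turned. Within 50 bp members had a median of 46.5% and other genes, at 25 bp, 42.6%, whereas at 151 to 200 bp it was 28.7% against 36.6% at 175 bp. Ribosomal protein members, most of them close to the start, had a median GC of 45.5%.

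**Figure D5:**
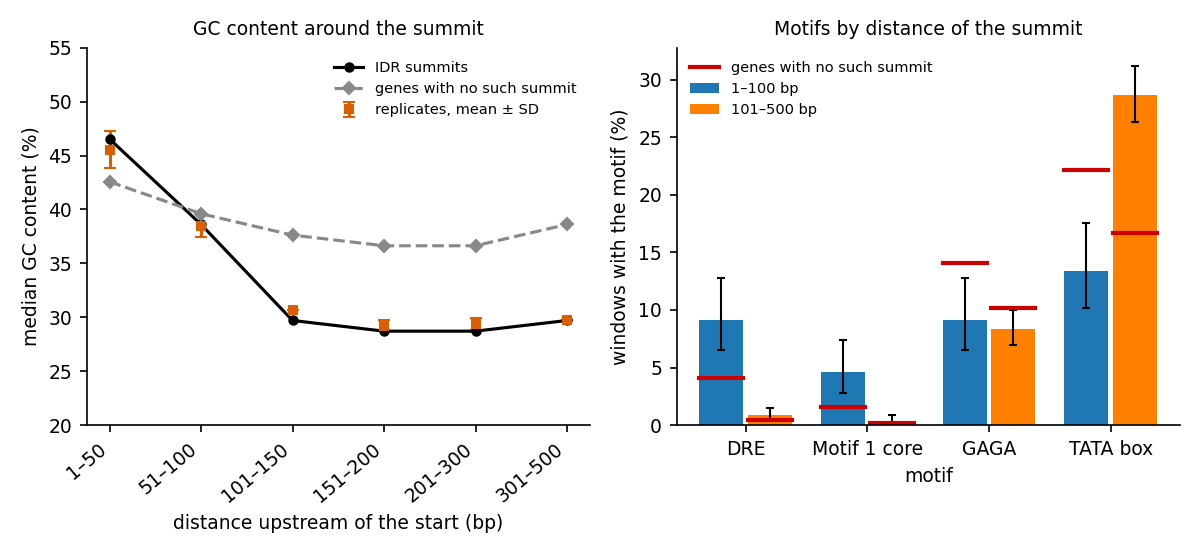
Left, median GC content (percent) of the 101 bp around the summit by distance upstream, for the IDR list, the replicates (mean ± SD, n = 3) and genes with no such summit; the lines cross between the first 2 classes. Right, percent of windows with each of 4 motifs for summits 1 to 100 bp and 101 to 500 bp upstream, with 95% Wilson intervals and red lines for other genes. DRE and Motif 1 stand above their line within 100 bp, and the letters of the TATA box beyond 100 bp.

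A set of 10 motifs was searched in these windows on both strands. The DRE (TATCGATA), known as the site of the factor DREF at housekeeping promoters, was in 41 members (2.53%, 95% Wilson interval 1.87 to 3.41%) and in 0.574% of the 8360 other windows. The Motif 1 core (GGTCACAC), an element of TATA-less fly promoters, was in 20 members (1.23%) against 0.215%. Both were thus more frequent and still rare; against windows at like distance, given below, the ratios were smaller. The TATA box letters (TATAAA) were in 25.6% of members against 17.7%, and the GAGA motif (GAGAG), bound by the GAGA factor, in 8.51% against 12.1%. The replicates gave 2.48 ± 0.405, 1.28 ± 0.218, 24.8 ± 0.726 and 9.59 ± 1.27% for the 4 motifs in that order (SD, n = 3), so each lay on the same side of the other windows.

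Shares of 3 of these motifs differed with distance. Among the 328 members within 100 bp of the start, the DRE was in 9.15% against 4.06% of windows centred 50 bp upstream at other genes, and among the 1293 farther members in 0.851% against 0.442% at 300 bp. The Motif 1 core was in 4.57% against 1.61% near the start and in 0.387% against 0.209% farther out. The TATA letters went the other way, with 13.4% against 22.2% near the start and 28.7% against 16.7% farther out. The GAGA motif was below the other windows in both classes, with 9.15% against 14.1% near the start and 8.35% against 10.2% farther out. In the replicates it was in 11.1 ± 3.42% near the start and 9.10 ± 0.685% farther out (SD, n = 3). Near the start the gap was thus within the replicate spread. The TATA letters are made of A and T only, and the farther members were the ones poor in G and C; that part was not tested. The DRE was in 1.70% of members in the stronger 4094 and 3.68% of those in the weaker 4094.

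Of the other motifs, the BEAF-32 core CGATA, whose letters also lie within the DRE, was in 16.3% of members against 12.8% of other windows. The Myc E-box CACGTG was in 0.617% against 1.14%, the Zelda site CAGGTAG in 0.308% against 0.562%, CCAAT in 19.1% against 20.5% and a run of 8 A in 7.53% against 6.77%. The E-box CAGCTG was in 3.08% against 3.67%, an order that turned with 100 bp on each side of the summit. In that wider window the GAGA motif was in 20.6% (18.7 to 22.6%) against 22.4%, so its interval held the value of the other windows. When all 8-letter words in at least 1% of members were counted (1462 words), CAACACTG had the highest ratio, in 32 members (1.97%) against 0.311%; it was picked for that value and is a description. In the replicates it was in 1.65 ± 0.18% (SD, n = 3). Of the 32, 22 lay within 100 bp of the start. A match to letters is not a bound site, and a missing match says nothing about a factor.

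Summits with the starts of 2 or more protein-coding genes within 500 bp, of which at least 1 lay downstream, are the closest comparison. There were 842 in the IDR list, so members were 65.8% of all summits upstream of a start. The shared ones lay closer to a start, with a median of 122 bp in the IDR list and 121.5, 118 and 114 bp in the replicates, against the members' 203.5, 188 and 193 bp. The mean difference was 77 bp farther for members (SD 6.25, range 70 to 82, n = 3; exact sign-flip permutation test, two-sided, p = 0.25). Eligible DNA of the 2 kinds hardly differed in median distance, at 234 and 237 bp. Shared upstream DNA was also denser in summits, with 455 per Mb in the IDR list and 507 ± 48.6 in the replicates, against the 273 ± 10.2 given above.

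Members were weaker than the shared summits in each replicate. Their median percentile was 59.5, 54.6 and 55 in replicates 1, 2 and 3, against 70.1, 61.2 and 61.0, a difference of -7.72 (SD 2.48, range -10.6 to -5.97, n = 3; exact sign-flip permutation test, two-sided, p = 0.25). They were stronger than the 343 summits with all starts within 500 bp behind them. Those had median percentiles of 37.5, 30.6 and 29.6, so members were 23.8 higher (SD 1.72, range 22 to 25.4, n = 3; exact sign-flip permutation test, two-sided, p = 0.25). With 3 replicates 0.25 is the smallest p this test can give, so it could not call any of these 3 comparisons, and adjustment over them leaves it the same. Strong summits in all 3 replicates matched 69.9% of members, 72.9% of shared summits (95% Wilson interval 69.8 to 75.8%) and 44.6% of those downstream (39.4 to 49.9%). The intervals of members and shared summits overlapped, and that of the downstream ones lay below both. Against the full lists of 30000 summits the shares were 87.2, 86.1 and 83.4%, so the gap to the downstream ones was much smaller there.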

How the data were processed

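The data are peak lists on dm6 from ChIP-seq of 1 group of 3 replicates. Per the deposited text files beside the lists, the authors called each replicate's list from its alignments and 1 control, a pooled list from the 3 alignments and that control, and the IDR list from these. No aligner, caller, threshold or read filter is named in the sources used here. Each peak carries a deposited signal value of unstated scale, used only to rank summits within a list. Replicate and pooled lists hold 30000 summits each, and the 8188 strongest pooled summits make up the IDR list. Summit offsets past the interval end (2 in the IDR list, 3, 5 and 7 in replicates 1, 2 and 3) were placed on the last base.

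Starts came from Ensembl release 115 (BDGP6), sequence from the RefSeq assembly of the same build. Distance is to the nearest start the summit is upstream of. Values ± SD are over each replicate's 8188 strongest summits, and matches lie within 100 bp. Intervals are Wilson at 95%, and a count of 0 allows 3. Replicate medians were compared by an exact sign-flip permutation test. Python with numpy 2.4.6, scipy 1.17.1 and matplotlib 3.10.9 was used, tested on simulated data. Genes were named by rank: the 12 strongest members, up to 3 per list, 2 per distance class, 3 between starts, 3 nearest the limit on each side, 3 inside another gene, and the 3 genes with most members; further genes of a list were added after their values were seen. The members, lists, motifs and comparisons were chosen with earlier results of these data known. Alternatives were windows of 250 and 1000 bp, nearest start only, interval midpoints, leaving out each replicate, the stronger 4094 summits, matches within 50 and 250 bp, full lists and a wider motif window.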

Additional observations from a re-analysis of the deposited data

How the results depend on the processing

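The number of members ranged from 1226 to 1245 when each replicate in turn was left out (members matched in both others), was 941 in the stronger 4094 IDR summits, 1271 and 1849 with windows of 250 and 1000 bp, 1553 when the nearest start had to be downstream, and 1633 with interval midpoints. The median distance was 135 and 281 bp with the 250 and 1000 bp windows, which bound it, 211 bp in the stronger 4094, and 202 to 210 bp without 1 replicate. The share matched in all replicates was 95% in the stronger 4094, 56.4% within 50 bp, 75.8% within 250 bp, 87.2% with full lists, and 75.6 to 76.8% without 1 replicate, where only 2 had to match. The median percentile was 79.6 in the stronger 4094 and 70.4 to 71.0 without 1 replicate, since both keep stronger summits. Genes with a member numbered 876 in the stronger 4094. Members lay farther from the start than shared summits by 23.2 to 136 bp and were weaker by -15.0 to -4.54 percentile points under other windows, nearest start only, midpoints and leaving out a replicate; neither was computed for the stronger 4094. In the stronger 4094, 16 of 27 gene lists moved by over 1.5 times in count. With 100 bp on each side of the summit the CAGCTG ratio turned from 0.840 to 1.06; the cause was not tested. No paired analysis was possible because there is 1 group; classes of summits were compared within each replicate. Depth is unknown, and 3 replicates allow no p below 0.25.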
